A study of Microtus ochrogaster with 51 samples.

Results

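A run of 10 Ensembl gene IDs, ENSMOCG00000000002, ENSMOCG00000000003, ENSMOCG00000000004, ENSMOCG00000000005, ENSMOCG00000000008, ENSMOCG00000000009, ENSMOCG00000000011, ENSMOCG00000000014, ENSMOCG00000000015 and ENSMOCG00000000017, was examined in the prairie vole (Microtus ochrogaster), in RNA of the nucleus accumbens. They are 10 of 23038 IDs listed in both deposited tables and belong to a block of 37 IDs that end in 00001 to 00037. The block appears to follow the order of the genes on the vertebrate mitochondrial genome. On that order the first and the third of the 10 would be ribosomal RNAs (rRNAs) and the other 8 transfer RNAs (tRNAs). This is an inference from the IDs, because the tables pair no ID with a name and 0 IDs matched the RefSeq gene table of the species (26397 genes, assembly MicOch1.0). The 10 were chosen by their place in the block and, for the 8, by a measurable level in TPM, a unit explained with the tables. Those levels are therefore given as a description. All genes are called by ID, and no sequence was matched to them.

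Mitochondrial DNA is transcribed into long RNAs that cover many genes. Enzymes cut these RNAs at the tRNAs, which lie between the rRNA and protein genes, and so release the rRNAs and messenger RNAs. The rRNAs form the small and the large subunit of the mitochondrial ribosome, and the tRNAs bring amino acids to it. Mitochondrial messenger RNAs and rRNAs of mammals receive short A tails and can be retained by poly(A) selection, whereas mature tRNAs end in CCA and are too short for standard RNA libraries. The nucleus accumbens, in the ventral striatum, is known in this species for its part in pair bonding.

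Polyadenylated RNA was sequenced from 1 library per animal, and every vole had been housed with an opposite-sex mate. Pairing had lasted 2 weeks, or 2 weeks followed by 4 weeks of separation, or 6 weeks. The table of normalized counts (read counts divided by 1 size factor per library) held 9 females and 9 males of the 2-week group and 12 females and 12 males of the separated group, which formed 21 complete pairs. The TPM table (reads divided by gene length, then brought to 1 common sum per library) held 51 libraries, including 3 females and 3 males paired for 6 weeks. No strain, age or allele is given in the labels. The labels place the 2-week pairs in cohorts 1 and 2 and the later groups in cohorts 3 and 4, so treatment and cohort cannot be told apart when separated or 6-week voles are compared with 2-week voles. No defining markers of the tissue could be checked, because the IDs carry no names. In bulk tissue, fewer cells of a type and less RNA per cell cannot be told apart, and for these IDs that holds for fewer mitochondria as well.

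Reads recovered from the normalized table numbered 20067514 to 37737711 per library (median 27487240). The 37 IDs took 13.2% to 41.0% of these reads (median 27.1%). Of the TPM, they took 30.02% to 60.9% in the same 42 libraries and 40.9% to 53.1% in the 6-week pairs. A set of 3 libraries of the TPM table stood apart, namely both partners of 2-week pair 15 and the male of separated pair 23, in which the 37 IDs took only 9.87% to 12.6% of the TPM. These 3 libraries are absent from the normalized table. All 8 short members were listed at 0 in them, so the TPM differences of both long members and of ENSMOCG00000000009 are given with and without them.

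The relative length behind the label was read from the files as the reads of an ID per unit of its TPM, set to 1 for ENSMOCG00000000004. On this scale ENSMOCG00000000002 had a length of 0.565 (range 0.561 to 0.570 over 42 libraries). The 8 other members had lengths of 0.00630 to 0.00691. They lay between percentile 0.0266 and percentile 0.144 of the 18800 IDs with a value, that is, among the shortest of the table. Of the other 27 IDs of the block, 13 were long (0.0408 to 1.22), 11 were short (0.00566 to 0.00726) and 3 had no read in any of the 42 libraries. The 15 long IDs thus stood at places 2, 4, 6, 10, 16, 19, 21, 22, 23, 25, 27, 28, 32, 33 and 35 of the 37. Vertebrate mitochondrial DNA has 2 rRNA genes, 13 protein genes and 22 tRNA genes, and the long IDs stood at the places that rRNA and protein genes hold in that order. Nothing in the lengths went against the label, although a length does not identify a gene. The lengths are those the authors' TPM used. They differed between libraries, from 0.00612 to 0.00743 for ENSMOCG00000000003, so the TPM did not use 1 fixed length per ID. Whether and how they were corrected for fragment size is not given in the sources used here. They may therefore understate the length of the short IDs.

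**Figure D1:**
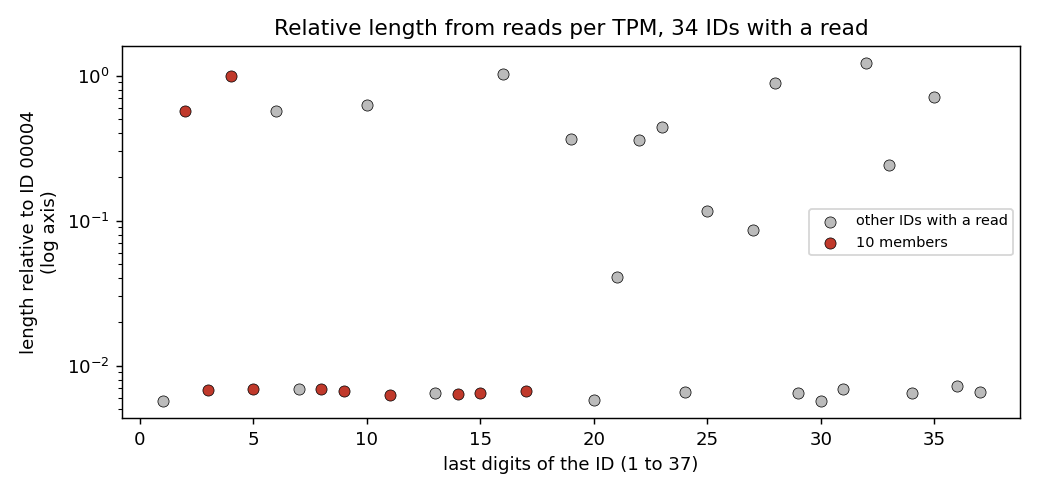
Length of each ID relative to ENSMOCG00000000004 (log axis) against the last digits of the ID, for the 34 IDs of the block with a read; red points are the 10 members. The 2 long members lie at 0.565 and 1, and the 8 short members lie between 0.00630 and 0.00691.

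Both presumed rRNA IDs were abundant in the polyadenylated RNA. ENSMOCG00000000004, the longer one and by its place the rRNA of the large subunit, received 20357883 reads over the 42 libraries, 1.74% of all reads. ENSMOCG00000000002, by its place the rRNA of the small subunit, received 13309314 reads or 1.14%. Their shares of a library ranged from 0.543% to 3.33% and from 0.322% to 2.32%. By reads they held ranks 8 and 10 among all IDs.

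Per length the order of the pair turned. ENSMOCG00000000002 had a mean of 17070 TPM (SD 6274, n = 51) and ENSMOCG00000000004 had 14655 TPM (SD 4783, n = 51), which gave ranks 11 and 12. Over the 42 libraries that are also in the normalized table the means were 17827 TPM and 15386 TPM. In TPM ENSMOCG00000000002 lay above ENSMOCG00000000004 in 45 of 51 libraries, but their levels overlapped widely between libraries. In reads ENSMOCG00000000004 lay above it in 42 of 42 libraries. In the 3 libraries that stood apart ENSMOCG00000000002 had 4849, 4612 and 6141 TPM and ENSMOCG00000000004 had 4156, 4968 and 4468 TPM, all of them under the lowest values of the other libraries (6394 and 6138 TPM).

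The 8 short IDs received 8750 reads together over 42 libraries, between 67 and 353 per library (median 199). ENSMOCG00000000009 took 87.2% of these reads, with 7627 in all and 60 to 306 per library (median 172.5). ENSMOCG00000000003 followed with 679 reads and 3 to 29 per library. Both had reads in all 42 libraries. Only these 2 short IDs reached the mean normalized count of 10 that was required for a test.

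The other 6 were near the limit of detection. ENSMOCG00000000005 had 141 reads in 38 libraries, ENSMOCG00000000008 had 139 in 35 and ENSMOCG00000000017 had 106 in 36. ENSMOCG00000000014, ENSMOCG00000000011 and ENSMOCG00000000015 had 22 reads in 13 libraries, 19 in 11 and 17 in 11, with at most 4 reads in a library. In a library without a read, a count of 0 allows up to 3 reads, for counting error only, so the order among these last 3 IDs was not detectable at this depth.

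The same IDs look far more abundant in TPM because of the short length that the TPM used for them, which may understate their gene length. For the 8 IDs 1 read was worth 4.45 to 4.99 TPM in the median library, against 0.0558 TPM for ENSMOCG00000000002 and 0.0316 TPM for ENSMOCG00000000004. ENSMOCG00000000009 had a mean of 828 TPM (SD 350, n = 51) and rank 80 by TPM, but rank 9814 by reads. ENSMOCG00000000003 had 73.6 TPM (SD 37.03, n = 51), and the other 6 had means of 1.92 to 14.5 TPM. In TPM the 4 tested members fell in the order ENSMOCG00000000002, ENSMOCG00000000004, ENSMOCG00000000009 and ENSMOCG00000000003. Only the first 2 neighbours in that order overlapped in the 42 libraries that also have counts.

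The 8 were not the only short IDs of the block with a level. The 11 short IDs that are not members had means of 0.115 to 17.8 TPM. The lowest member, ENSMOCG00000000015, had 1.92 TPM, while ENSMOCG00000000020 and ENSMOCG00000000030, which are not members, had 2.08 and 17.8 TPM. All 8 members stand in the first 17 places of the block.

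Normalized counts of ENSMOCG00000000002 overlapped between all 4 groups. In 2-week females they ran from 77173 through a median of 246850 to 561570 (272833 ± 133946, SD, n = 9). In 2-week males they ran from 162184 through 271838 to 423110 (273717 ± 90527, SD, n = 9). Separated females spanned 127677 to 768573 with a median of 319078 (355795 ± 194154, SD, n = 12), and separated males spanned 170600 to 684863 with a median of 400370 (416514 ± 162604, SD, n = 12). The separated medians were the higher ones in each sex, with 2 of 12 females and 5 of 12 males above the highest 2-week animal of their sex.

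ENSMOCG00000000004 had the same order of medians. It had 130189, 395858 and 736046 normalized counts as lowest, median and highest in 2-week females (420441 ± 187023, SD, n = 9), and 263245, 435665 and 688972 in 2-week males (456320 ± 137201, SD, n = 9). In separated females it had 227497, 460833 and 1061131 (532300 ± 249154, SD, n = 12). In separated males it had 272607, 576468 and 1078538 (604864 ± 249924, SD, n = 12). Above the highest 2-week animal of their sex lay 2 of 12 separated females and 4 of 12 separated males.

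ENSMOCG00000000009, by its place a tRNA, had 63.7, 142 and 167 normalized counts as lowest, median and highest in 2-week females (133 ± 32.3, SD, n = 9) and 67.6, 173 and 267 in 2-week males (160 ± 61.1, SD, n = 9). In separated females these were 128, 191 and 303 (203 ± 63.8, SD, n = 12), while males after separation had 49.4, 239 and 358 (225 ± 82.4, SD, n = 12). In females 8 of 12 separated animals lay above every 2-week animal. Males overlapped more, and the lowest value of all was that of separated male 32.

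ENSMOCG00000000003, by its place the tRNA between both presumed rRNAs, was low everywhere. It had 9.99 ± 4.12 normalized counts in 2-week females (SD, n = 9; 4.23 to 17.7) and 15.98 ± 7.22 in 2-week males (SD, n = 9; 5.41 to 25.3). It had 18.6 ± 8.45 in separated females (SD, n = 12; 6.18 to 34.2) and 19.5 ± 6.95 in separated males (SD, n = 12; 2.15 to 33.5). Separated male 32 was again the lowest library.

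**Figure D2:**
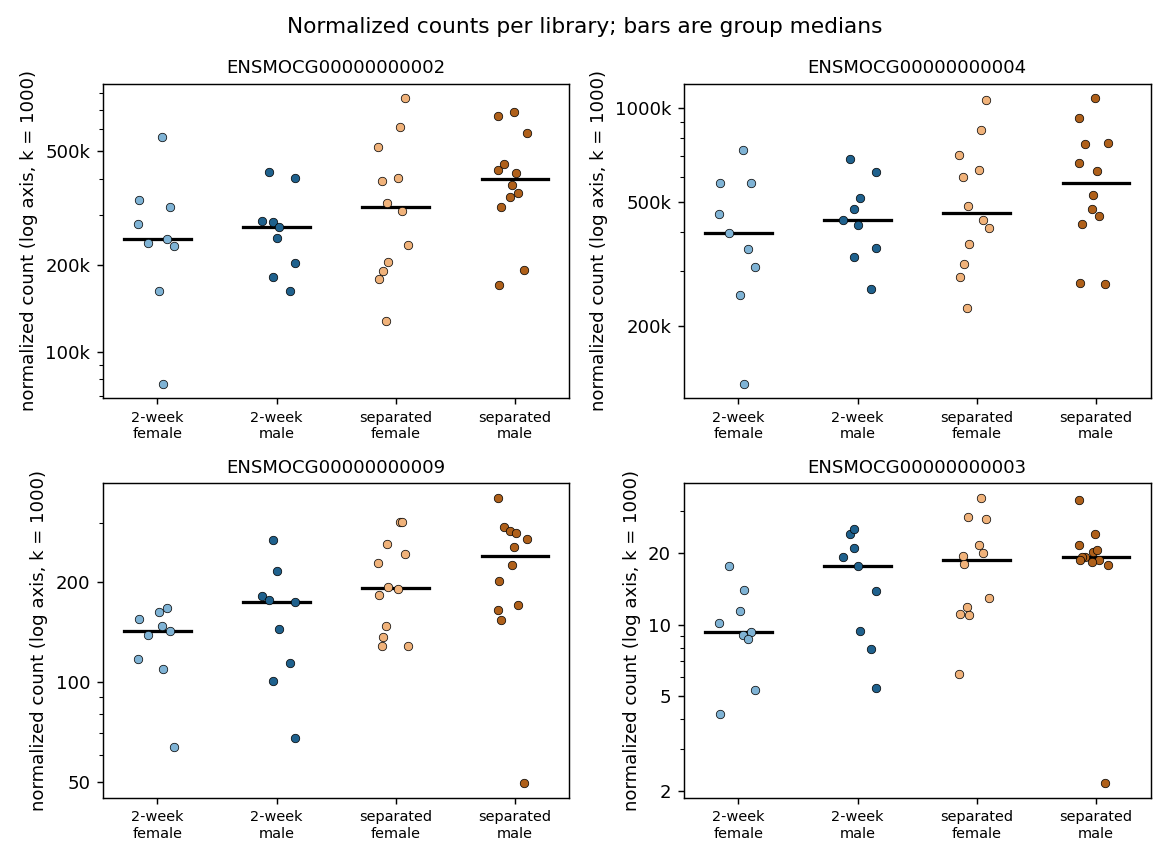
Normalized counts (log axis) of the 4 tested members in each library of the 4 groups; horizontal bars are group medians. The median of the separated group is the higher one in each sex and each panel, and the points overlap between all groups.

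Separated and 2-week voles were compared to ask whether the level of these RNAs differed after the loss of the partner. With sexes averaged, limma called 0 of the 4 tested members at an adjusted p of 0.05, against 3.29% of all genes tested (465 of 14151), and all 4 fitted values lay above 0. The log2 difference was 0.46 ± 0.20 for ENSMOCG00000000002 (SE; adjusted p = 0.237) and 0.35 ± 0.19 for ENSMOCG00000000004 (SE; adjusted p = 0.361). It was 0.52 ± 0.18 for ENSMOCG00000000009 (SE; adjusted p = 0.0966) and 0.53 ± 0.23 for ENSMOCG00000000003 (SE; adjusted p = 0.225). The median over the 4 was 0.49, beside -0.0022 over all genes tested. Of the other 27 IDs of the block 13 could be tested, and 0 were called, with log2 differences of 0.14 to 0.33. At an unadjusted p of 0.05 limma had 2353 genes, edgeR called 491 genes after adjustment and DESeq2 called 694.

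The call of ENSMOCG00000000009 turned on the tool and on 1 pair. DESeq2 on the recovered reads gave it a log2 difference of 0.55 with an adjusted p of 0.0268, while edgeR's quasi-likelihood test gave 0.55 with an adjusted p of 0.0570. Without separated pair 32, limma gave 0.62 with an adjusted p of 0.0152. Over all its alternatives the adjusted p ran from 0.0152 to 0.395. ENSMOCG00000000003 likewise passed without pair 32 (0.67, limma adjusted p = 0.0467). The share of all genes called without that pair is not given here. Fitting the pair as a block left 0 members called and lowered the calls over all genes from 465 to 8. Above the mean log2 level of the 2-week animals of their sex lay 10 of 12 separated females and 11 of 12 separated males for ENSMOCG00000000009. For ENSMOCG00000000003 it was 11 of 12 in both sexes. For ENSMOCG00000000002 it was 7 of 12 females and 10 of 12 males, and for ENSMOCG00000000004 8 of 12 and 9 of 12.

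In females alone 0 of 4 members were called, beside 0.382% of all genes, with log2 differences of 0.35 to 0.80 (limma adjusted p = 0.364 to 0.771). The values of both long members in females turned on few animals. Without pair 2 the 0.36 of ENSMOCG00000000002 was 0.15 and the 0.35 of ENSMOCG00000000004 was 0.16. Without cohort 1 they were 0.12 and 0.14, and without cohort 2 they were 1.19 and 1.09. In males alone 0 of 4 were called, beside 0% of all genes, with 0.27 to 0.56 (limma adjusted p = 0.613 to 0.898). At an unadjusted p of 0.05 limma had 1381 genes in females and 1176 in males. After adjustment edgeR called 75 and 5 genes and DESeq2 163 and 22. The interaction of treatment and sex was called for 0 of 4 members, beside 0.00707% of all genes. Males and females of a treatment differed in 0 of 4 members in either group, beside 0.0212% of all genes each time. Cohort 2 differed from cohort 1 in 0 of 4 members, beside 0.00707% of all genes, and cohort 4 from cohort 3 in 0 of 4, beside 0%, with 393 genes at an unadjusted p of 0.05 in limma and 1 gene called by edgeR. The fitted cohort difference of the 2-week pairs was 0.67 for ENSMOCG00000000002 and 0.59 for ENSMOCG00000000004, above their fitted difference between separated and 2-week voles, but cohort 1 had only 2 pairs.

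The 6-week pairs were present in the TPM table only. Their ENSMOCG00000000002 levels were 13187, 16646 and 16619 TPM in females and 13129, 17587 and 29057 TPM in males of pairs 18, 22 and 27. ENSMOCG00000000004 had 12280, 13092 and 15286 TPM in these females and 10840, 16469 and 19606 TPM in these males. All 12 values lay within the range of the other libraries that have counts. For ENSMOCG00000000009 the levels were 696, 1103 and 723 TPM in females and 1043, 1293 and 1549 TPM in males.

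Separated and 6-week voles could be compared within cohorts 3 and 4. With limma on log2(TPM + 0.5), 0 of 10 members were called, beside 0% of all genes (0 of 13110; 107 at an unadjusted p of 0.05). The log2 difference was 0.01 ± 0.23 for ENSMOCG00000000002 (SE) and 0.02 ± 0.22 for ENSMOCG00000000004 (SE), and without the 3 libraries that stood apart it was 0.10 and 0.13. For ENSMOCG00000000009 it was -0.71 ± 0.89 (SE), and -0.10 without them. Between 6-week and 2-week pairs 0 of 10 members were called, again beside 0% (0 of 13141; 242 at an unadjusted p of 0.05). ENSMOCG00000000002 had a log2 difference of 0.39 ± 0.27 (SE) and ENSMOCG00000000004 of 0.26 ± 0.26 (SE), or 0.23 and 0.11 without the 3 libraries. The short ENSMOCG00000000009 had 1.65 ± 1.30 (SE) with them and 0.61 without them, and ENSMOCG00000000003 had 1.43 ± 0.86 (SE) and 0.75. Leaving out the 3 libraries, in which the short IDs are listed at 0, moved the differences of the short IDs by more than those of the long IDs. All adjusted p-values of both comparisons were 1.00, and for the members given above the errors allow differences in either direction. Between 6-week and 2-week pairs, with the 3 libraries included, all 10 members lay above 0 (median 1.39). So did 18 of 19 other IDs of the block. The largest difference of a member was 2.06 ± 0.81 (SE, unadjusted limma p = 0.0169) for ENSMOCG00000000017, an ID near the limit of detection. Both libraries of 2-week pair 15, where the short members are listed at 0, entered these values. The count, the median and this largest value are not given here without the 3 libraries.

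The level of both long members fell as the read total of a library rose. In the 5 libraries with the fewest reads (20067514 to 23530220), ENSMOCG00000000002 had 233423 to 768573 normalized counts (median 516424). In the 5 with the most reads (32488573 to 37737711) it had 77173 to 246850 (median 170600). ENSMOCG00000000004 went from 308587 to 1061131 (median 708668) in the former to 130189 to 352486 (median 272607) in the latter. For both IDs all 5 shallow libraries lay above the median of the 5 deep ones, and the ranges overlapped at 1 end.

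The slope of ENSMOCG00000000002 on the log2 read total, within treatment and sex, was -2.50 ± 0.35 (SE; limma adjusted p = 1.18e-07). For ENSMOCG00000000004 it was -2.30 ± 0.33 (SE; limma adjusted p = 2.27e-07). The short ENSMOCG00000000009 had a slope of -0.78 ± 0.44 (SE; limma adjusted p = 0.113) and ENSMOCG00000000003 of -0.49 ± 0.59 (SE; limma adjusted p = 0.484). Thus 2 of 4 tested members fell with the read total, against 31.4% of all genes that fell and 65.1% that changed in either direction. Of the other 27 IDs of the block 11 of 13 tested fell, with slopes down to -1.68. The reads of the members count towards the read total. With the total of the reads outside the 37 IDs in its place, the slopes of ENSMOCG00000000002 and ENSMOCG00000000004 were -2.02 and -1.84, and that of ENSMOCG00000000009 was called as well (-0.79; limma adjusted p = 0.0123). The share of all genes called with that total is not given here, so this call cannot be set against it.

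Scaling the reads to all genes, or using TPM, moved the median slope of all genes from -0.0053 to 0.38 and 0.81, and the share of called genes that fell from 48.3% to 28.7% and 10.9%. Relative to that median, the slope of ENSMOCG00000000002 was -2.50, -2.49 and -2.45 and that of ENSMOCG00000000004 was -2.29, -2.29 and -2.22 under the 3 scales. The sign for ENSMOCG00000000009 (0.08) and ENSMOCG00000000003 (0.31) turned in TPM, and relative to the median it did not (-0.73 and -0.50). Within single cohorts the slope of ENSMOCG00000000002 was -2.13 in cohort 2, -2.58 in cohort 3 and -2.59 in cohort 4. That of ENSMOCG00000000004 was -1.84, -2.14 and -2.60. In cohort 3, with 10 libraries, limma called 0 of 4 members and 0 of all genes, with 4248 at an unadjusted p of 0.05. In cohort 4 it called 4 of 4 members, beside 31.7% of all genes, and ENSMOCG00000000009 and ENSMOCG00000000003 had slopes of -2.26 and -2.80 there. Cohort 1, with 4 libraries, was not fitted alone.

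**Figure D3:**
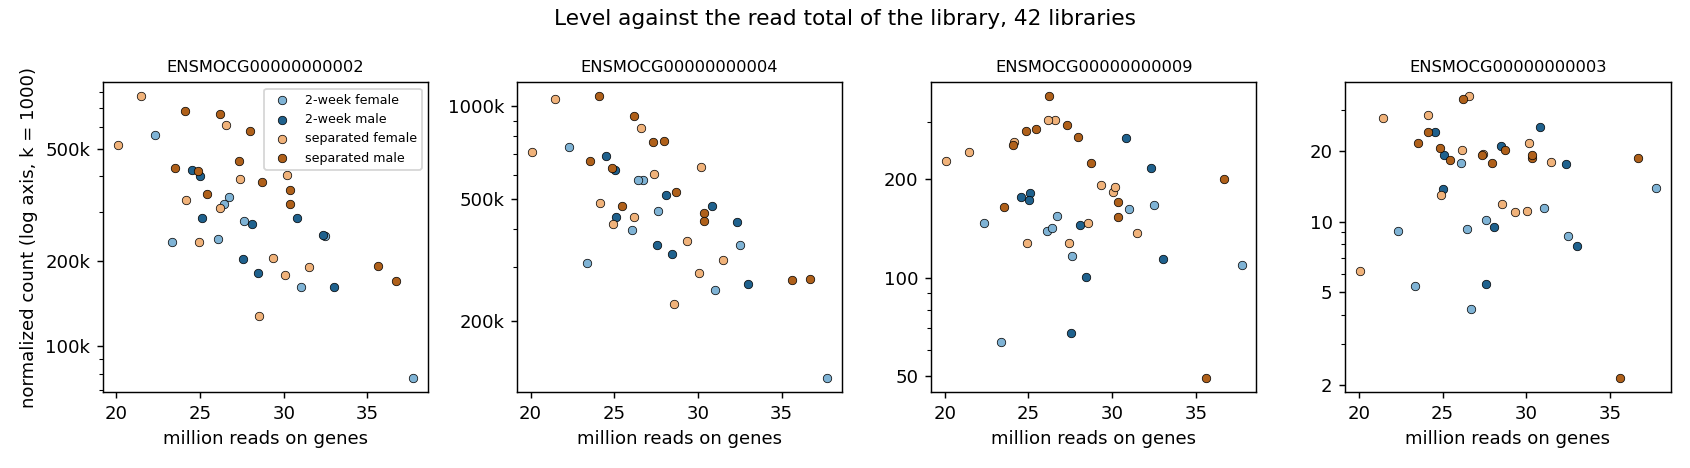
Normalized count (log axis) of the 4 tested members against the read total of the library, coloured by group. Both long IDs in the left panels fall from left to right, and the 2 short IDs in the right panels scatter more, with separated male 32 lowest in both.

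Partners had lived together as a pair, and the question was whether their libraries were alike in these RNAs. Levels were centred on cohort and sex before partners were correlated over 21 pairs, and males were reassigned within cohorts in a one-sided permutation test over all genes. The correlation of ENSMOCG00000000002 between partners was 0.71 (permutation adjusted p = 0.00171) with a Spearman rho of 0.645 (permutation adjusted p = 0.00979). For ENSMOCG00000000004 it was 0.685 (permutation adjusted p = 0.00242) with a rho of 0.652 (permutation adjusted p = 0.00514). Without the 2 pairs whose female lay farthest from the median, r was 0.596 and 0.562. ENSMOCG00000000003 had an r of 0.138 (permutation adjusted p = 0.331) and ENSMOCG00000000009 of 0.000691 (permutation adjusted p = 0.593). So 2 of 4 tested members were called, beside 43.6% of all genes (6164 of 14150), and the median r over all genes was 0.404. The count is near that share, so it does not set the members apart from other genes.

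The read totals of partners were alike too. The log2 read totals of partners had an r of 0.668 over 21 pairs (permutation p = 0.00048, adjusted over 4 relations 0.00096) and a Spearman rho of 0.673 (permutation p = 0.00124, adjusted 0.00248). Without the 2 pairs farthest from the median r was 0.641, and within cohorts 2, 3 and 4 it was 0.785, 0.379 and 0.790. After each gene was fitted on the log2 read total, the median r between partners over all genes fell from 0.404 to 0.0939. The r between partners was then 0.454 for ENSMOCG00000000002 (permutation p = 0.0394, adjusted 0.489) and 0.367 for ENSMOCG00000000004 (permutation p = 0.0712, adjusted 0.518). These lay at percentiles 93.5 and 86.5 of all genes, against 78.1 and 75.8 before the fit. On these residuals the permutation test called 0 of all genes, with 1415 at an unadjusted p of 0.05. In 2-week pairs alone r was 0.471 and 0.509, and in separated pairs alone it was 0.816 and 0.780. Within cohort 2 the values were 0.761 and 0.790 and within cohort 4 they were 0.868 and 0.811, with 7 pairs each. The difference between the 2-week and the separated pairs was not tested.

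**Figure D4:**
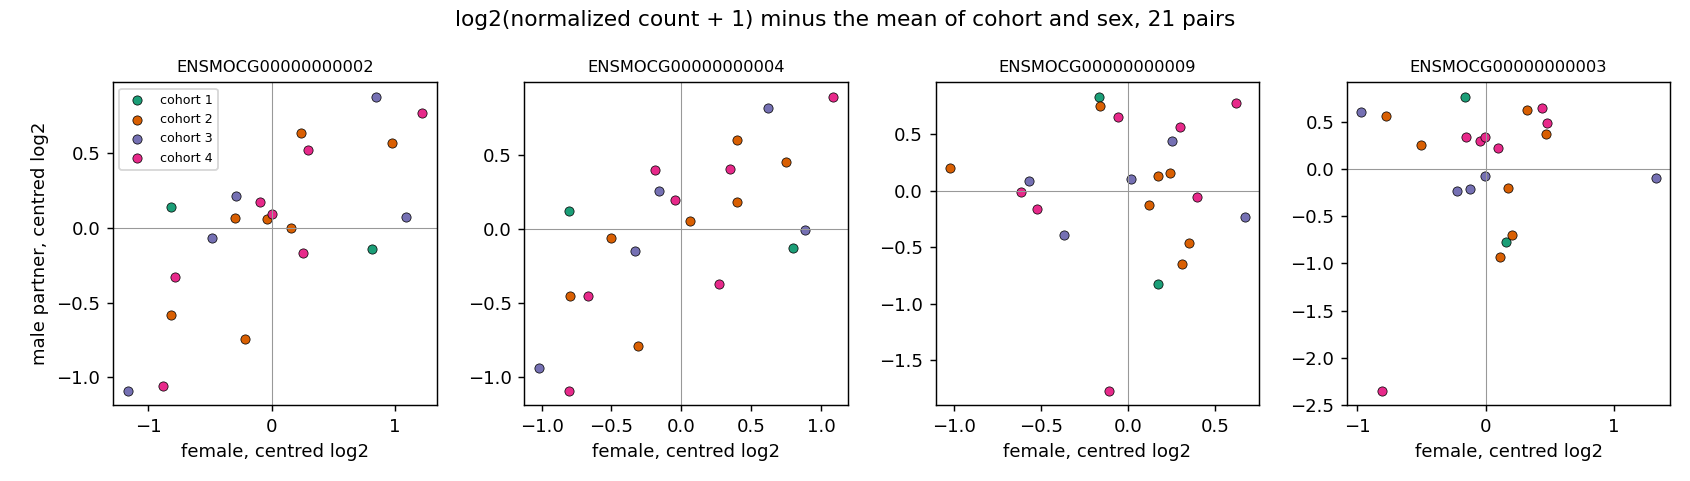
Level of the male partner against that of the female for the 4 tested members, each as log2(normalized count + 1) minus the mean of its cohort and sex; 1 point per pair, coloured by cohort. In the panels of both long IDs the points run from lower left to upper right (r = 0.71 and 0.685), and in those of the short IDs they show no such line (0.000691 and 0.138).

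The 2 long IDs varied together from library to library. Over the 42 libraries their centred levels had an r of 0.979 (permutation p = 1e-05, the smallest that 100000 permutations can give, adjusted 4e-05) and a Spearman rho of 0.982 (permutation p = 1e-05, adjusted 4e-05). Without the 2 libraries farthest from the median r was 0.975, and within cohorts 2, 3 and 4 it was 0.959, 0.994 and 0.981. Both levels come from the same library and share its size factor. The SD of the log2 level was 0.617 for ENSMOCG00000000002 and 0.580 for ENSMOCG00000000004, whereas that of the log2 ratio between them was 0.128. Against the summed reads of the 13 other long IDs of the block the ratio had an SD of 0.300 and 0.301. For ENSMOCG00000000009 the ratio to ENSMOCG00000000004 had an SD of 0.514, close to the 0.525 of its own level.

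As a description, the 2 IDs outside the block whose pattern was most like that of ENSMOCG00000000002 over the 42 libraries were ENSMOCG00000021410 (r = 0.890) and ENSMOCG00000010518 (r = 0.883). The same 2 IDs came first for ENSMOCG00000000004, with 0.889 and 0.884. No ID outside the block (0 of them) was as like either long member as the other long member was. The 13 other long IDs of the block had an r of 0.674 to 0.928 with ENSMOCG00000000002 and of 0.649 to 0.907 with ENSMOCG00000000004. With the short ENSMOCG00000000009 these were 0.564 and 0.575, and with ENSMOCG00000000003 they were 0.450 and 0.464.

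The ratio of ENSMOCG00000000002 to ENSMOCG00000000004 within a library needs no size factor. It compares the presumed rRNA of the small subunit with that of the large one, which lie next to each other in the order of the block, parted by ENSMOCG00000000003. In reads it ranged from 0.527 to 0.794 over the 42 libraries (0.650 ± 0.0693, SD, n = 42). In males it was higher after separation. In 2-week males it ran from 0.527 through a median of 0.601 to 0.654 (0.597 ± 0.0421, SD, n = 9). After separation it ran from 0.590 through 0.713 to 0.794 in males (0.695 ± 0.0617, SD, n = 12). The log2 difference in males was 0.22 ± 0.05 (SE; two-sided exact permutation p = 0.000834, adjusted over both sexes 0.00167). Above the mean of the 2-week males lay 11 of 12 separated males, and the groups overlapped in part.

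In females no difference of the ratio passed the test. It ran from 0.554 through 0.608 to 0.763 in 2-week females (0.646 ± 0.0765, SD, n = 9) and from 0.561 through 0.646 to 0.729 in separated females (0.648 ± 0.0635, SD, n = 12). The log2 difference was 0.0068 ± 0.069 (SE; two-sided exact permutation p = 0.920, adjusted 0.920), with 6 of 12 separated females above the 2-week mean. The change in males exceeded that in females by 0.21 on the log2 scale (permutation of treatment within each sex, 100000 resamples, p = 0.0278). With separated voles of cohort 4 alone it gave 0.18 (permutation p = 0.108), and without pair 13 or pair 19 it gave 0.19 (permutation p = 0.0503 and 0.0551). Since partners share their treatment, the difference was also taken within each pair, as the log2 ratio of the male minus that of the female. The male lay below the female in 8 of 9 pairs at 2 weeks (mean -0.11, SD 0.11) and above in 8 of 12 separated pairs (mean 0.10, SD 0.20). With treatment permuted over pairs the difference of 0.21 ± 0.07 (SE) had an exact permutation p of 0.0137. With a pair left out this p ran from 0.0034 to 0.0265, and with separated pairs of cohort 4 alone it was 0.0708 (exact permutation). Both tests were added after the values were seen.

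The change in males was as large with the separated males of either later cohort, each set against the same 2-week males. It was 0.22 with those of cohort 3 alone (exact permutation p = 0.0035) and 0.22 with those of cohort 4 alone (exact permutation p = 0.00533). Without cohort 1 it was 0.21 (exact permutation p = 0.00318), and in TPM it was 0.22 (exact permutation p = 0.000891). Treatment and cohort still cannot be told apart. Males had a median of 28093447 reads per library at 2 weeks and of 27647415 after separation. The 37 IDs took a median of 25.1% and 28.9% of these reads. Across all 42 libraries the centred log2 ratio had an r of -0.296 with the log2 read total (permutation p = 0.0768, adjusted over 4 relations 0.102) and a rho of -0.306 (permutation p = 0.0672, adjusted 0.0897). Without the 2 libraries farthest from the median r was -0.183, and within cohorts 2, 3 and 4 it was -0.345, -0.650 and 0.020.

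In the TPM table the ratio of 6-week females was 1.07, 1.27 and 1.09 and that of 6-week males was 1.21, 1.07 and 1.48, for pairs 18, 22 and 27. The same ratio in TPM was 1.04 ± 0.0808 in 2-week males (SD, n = 10). After separation males had 1.24 ± 0.112 (SD, n = 13). These 2 groups include the males of pairs 15 (0.928) and 23 (1.37), whose libraries stood apart, and the difference of 0.22 in TPM was computed without them. Males paired for 6 weeks had 1.25 ± 0.210 (SD, n = 3). Of these, 1.07 lay within the range of both groups, 1.21 within that of separated males and above every 2-week male, and 1.48 above both ranges. Partners were not shown to share the ratio. Its r between partners was 0.215 over 21 pairs (permutation p = 0.176, adjusted 0.176) with a rho of 0.248 (permutation p = 0.141, adjusted 0.141). Without the 2 pairs farthest from the median r was 0.114, and within cohorts 2, 3 and 4 it was 0.756, 0.564 and -0.788.

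**Figure D5:**
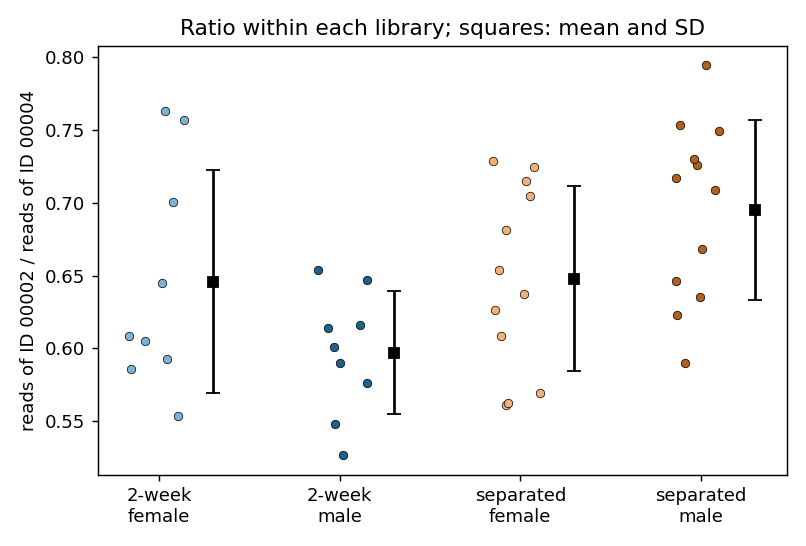
Reads of ENSMOCG00000000002 divided by reads of ENSMOCG00000000004 in each library of the 4 groups; squares and bars are the mean and SD. Separated males (mean 0.695) lie above 2-week males (0.597) with partial overlap, and both groups of females have a mean near 0.65 (0.646 and 0.648).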

How the data were processed

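Polyadenylated RNA of the nucleus accumbens was measured in 51 voles. The authors deposited normalized counts (a signal: reads over a size factor of the library) for 42 libraries and TPM for 51, per the file headers. DESeq2 and DESeq are named, with no version, in the submitters' processing notes. For aligner, counter, build and annotation the entry is: not given in the sources used here. Each normalized column rose in equal steps, and dividing by its step gave whole reads for 100% of the values (tolerance 0.01). Gene lengths, where compared, came from reads per TPM. For the 2-week females of pairs 9 and 15, labels and columns disagreed about inclusion, and the columns were followed. The female of pair 23 was not analysed here. The number of table columns that belong to no sample was 0.

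The main test was limma 3.58.1 (R 4.3.3; trend and robust eBayes) on log2(normalized count + 1), with group means of treatment and sex, genes of a mean normalized count of at least 10 and Benjamini-Hochberg adjustment over all of them at 0.05. Comparisons with 6-week pairs used log2(TPM + 0.5), a mean TPM of at least 1, sex and, within cohorts 3 and 4, cohort. Fold changes on these scales understate the change of low genes. Ratios used exact permutation, and partner likeness 100000 reassignments of males within cohorts (10080 in 2-week pairs and 5040 in single cohorts), in Python 3.11.15. Alternatives included edgeR 4.0.16 (491 genes between separated and 2-week voles) and DESeq2 1.42.0 on recovered reads, other scalings, filters and pseudocounts, a pair block, a depth covariate, and leaving out pairs or cohorts. Scripts were tested on simulated data.

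The labels name the cohabiting partners, so pair numbers tie their libraries by design (consensus correlation over genes 0.396). Each library is 1 animal, so p-values measure the spread between animals. The main limma fit treated partners as independent animals, and the pair was tied only in the alternative with a pair block. All 10 members are named by rule, and of IDs outside the block the 2 most like each long member. ENSMOCG00000000020 and ENSMOCG00000000030 were named after their values were seen. The members, lists and rules were chosen with earlier results of these data known.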

Additional observations from a re-analysis of the deposited data

Results flagged for a closer look

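The change of the ratio of ENSMOCG00000000002 to ENSMOCG00000000004 after separation differed between the sexes by 0.21 on the log2 scale, higher in males (permutation p = 0.0278 within each sex, and exact permutation p = 0.0137 over pairs). In males the difference was 0.22 ± 0.05 (SE; exact permutation p = 0.000834) and in females 0.0068 ± 0.069 (SE; exact permutation p = 0.920). Cohort differed along with treatment here, so the change cannot be tied to separation alone. Males still paired at 6 weeks shared cohorts 3 and 4 with the separated males. Their mean log2 ratio in TPM was 0.313 (3 animals, SD 0.239). Separated males averaged 0.305 and 2-week males 0.0588 on that scale, pairs 15 and 23 included. The ratio of the 6-week males was not tested against either group. The comparison between the sexes was added after the values were seen. It misses the threshold with separated voles of cohort 4 alone in both tests (0.18), and without pair 13 or pair 19 in the test within each sex (0.19). The 4 tested members and the ratio were also examined for single libraries far from the rest of the 2-week groups, where chance marks about 1 in 20 groups, and 0 of 18 groups were marked.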

How the results depend on the processing

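The count of members called kept its value under most alternatives, and the cause of the changes below was not tested. Between separated and 2-week voles DESeq2 called 1 member (0.55 for ENSMOCG00000000009), and leaving out a pair gave 0 to 2, with 2 without pair 32. The share of all genes called with a pair left out is not given here, so these counts cannot be set against it. With the pair as a replicate block the adjusted p of the 4 tested members was 0.395 to 0.595, 0 of them were called, and the block changed no other member's call. For the read total, 0 members were called within cohort 3 alone and 4 within cohort 4 alone. There ENSMOCG00000000003 and ENSMOCG00000000009, neither of them called in the main comparison, reversed in TPM (0.31 and 0.080), within cohort 3 (0.62 for ENSMOCG00000000003) and within cohort 2 (0.52 for ENSMOCG00000000009). With a pair left out the slope of ENSMOCG00000000003 ran from -0.89 to 0.21. Between separated and 6-week voles the pair block gave -0.040 for ENSMOCG00000000002 and -0.031 for ENSMOCG00000000004, and leaving out a 6-week library gave -0.062 to 0.13 and -0.045 to 0.084. Of partner likeness, 0 members were called on residuals of the read total, in 2-week pairs alone, in cohort 2 alone and in cohort 4 alone. Of all genes 10.1% were called in 2-week pairs alone, and 0% on the residuals and in either of these cohorts alone. The r of ENSMOCG00000000003 was -0.332 in 2-week pairs and -0.272 in cohort 2. That of ENSMOCG00000000009 was -0.0948 by Spearman, -0.0616 on residuals, -0.0110 in TPM, -0.0634 with reads scaled to all genes, -0.469 in 2-week pairs and -0.477 in cohort 2. With a pair left out these ran from -0.278 to 0.276 and from -0.117 to 0.0599. The ratio in females was -0.022 without cohort 1 and -0.044 with cohort 3 alone, and ran from -0.020 to 0.038 with a library left out. In males it ran from 0.20 to 0.24, below the threshold each time. The difference between the sexes ran from 0.19 to 0.24 with a pair left out, and was 0.18 with cohort 4 alone. With treatment permuted over pairs as a replicate block it missed the threshold with cohort 4 alone (0.18).

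Counts over all genes moved more. Without leaving out pairs they ran from 7 to 727 for separated against 2-week voles (465 in the main comparison), from 2 to 163 in females (54), from 0 to 22 in males (0), from 0 to 3 for the interaction (1), from 1 to 5 and from 1 to 4 for sex (3 each), from 0 to 8 and from 0 to 1 for cohorts (1 and 0), from 0 to 9435 for the read total (9217), and from 0 to 2 and 0 to 3 for separated and 2-week against 6-week voles (0 each). TPM moved the median over all genes by -0.12 in females and -0.17 between cohorts 1 and 2. Depth limits the 6 short IDs under the filter, which were not tested in counts.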
